A study of Oryza sativa with 7 samples.

Results

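The KNOX homeobox genes of rice were followed in crown root primordia and in the ground tissue of the stem base. They were taken as 8 loci given by identifier, 7 of class I and 1 of class II, out of 24776 loci: the 24775 listed in at least 1 of the deposited tables and LOC_Os03g56140, which none of the tables lists. The class I loci were OSH1 (LOC_Os03g51690), OSH15 (LOC_Os07g03770), OSH6 (LOC_Os01g19694), OSH71 (LOC_Os05g03884), OSH3 (LOC_Os03g51710), OSH43 (LOC_Os03g56110) and LOC_Os03g56140. The class II locus was OSH45 (LOC_Os08g19650). All 8 gene names given with the loci occur among the synonyms of the RefSeq table for assembly ASM3414082v1, each on the chromosome its locus identifier gives. For 7 loci nothing in that table went against the name. LOC_Os03g56140 was supplied under the name OSH10, but RefSeq places OSH10 before OSH1, OSH3 and OSH43 on chromosome 3, whereas LOC_Os03g56140 comes after them in identifier order. It is therefore called by its identifier here. Its place among the class I members was taken as supplied and was not checked.

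The libraries were of crown root primordia at initiation (3 libraries), primordia at outgrowth (2 libraries) and ground tissue, the control (2 libraries). All came from stem bases of wild-type seedlings of the indica cultivar IR64, 6 days old, germinated on Murashige and Skoog medium, with no transgene, mutation or treatment named. Cells were excised from tissue sections by laser capture microdissection, and the labels do not say which plants or how many cells went into a library. Tissue markers could not be looked up, since the tables give identifiers without gene names.

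KNOX proteins are homeodomain transcription factors that bind DNA together with partner proteins of the BELL family. Class I genes are active in the shoot apical meristem and the stem, where they keep cells from differentiating, and they are switched off where a leaf is founded. In the shoot, class I proteins raise cytokinin and lower gibberellin, and class II genes are expressed more widely in maturing organs. Crown roots, the shoot-borne roots of cereals, start from cells inside the stem, so a primordium forms within an organ where class I KNOX genes are normally expressed.

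Total counts per library lay between 8351775 and 25448025, and the unit CPM is reads scaled so that each library's table sums to 1000000. The tables of initiation replicates 1 and 3 agreed more closely than sampling noise allows 2 libraries to: their squared difference averaged 0.402 times the counting noise, against 9.53 to 52.5 times for the other pairs within a group. They were counted as 1 sample, so each group had n = 2. Nothing in the labels says that the libraries of a group came from separate plants, so the p-values speak only of the spread among these libraries, and that spread may be technical. The outgrowth tables alone have a different format. Whether they form a separate batch was not tested, and such a batch would enter outgrowth differences from control and from initiation alike. In bulk tissue, fewer cells that express a gene and less RNA of it per cell cannot be told apart.

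OSH1, the rice counterpart of maize KNOTTED1 and a gene needed to form and keep the shoot meristem, was much lower in primordia than in ground tissue. At initiation it had 72.9, 67.9 and 71.8 CPM in replicates 1, 2 and 3, at outgrowth 15.02 and 13.05 CPM, and in control 415.0 and 428.6 CPM. The groups did not overlap: every control library lay above every initiation library, and these lay above both outgrowth libraries. OSH1 averaged 70.0 ± 3.03 CPM over the initiation samples and 421.8 ± 9.64 CPM over the control samples (SD, n = 2 each), 5.66-fold lower at initiation with a log2 fold change of -2.50 ± 0.18 (SE, edgeR adjusted p = 0.000216). At outgrowth it averaged 14.0 ± 1.39 CPM (SD, n = 2), 29.1-fold below control, with a log2 fold change of -4.86 ± 0.20 (SE, edgeR adjusted p = 4.22e-05). Only 2.79% of the 18830 genes tested had a lower log2 fold change between outgrowth and control. RefSeq lists 1 other gene that overlaps OSH1, and as it is not known whether counting used strand, its reads cannot be told apart from those of OSH1.

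OSH15, whose loss causes the d6 dwarf with short internodes, stepped down in the same order with smaller differences. It had 191.9, 191.1 and 193.4 CPM at initiation, 102.9 and 96.3 CPM at outgrowth, and 268.4 and 366.7 CPM in control. The initiation samples were nearly equal, the control samples differed from each other more than those of any other group did, and no groups overlapped. The log2 fold change of OSH15 was -0.64 ± 0.20 between initiation and control (SE, edgeR adjusted p = 0.0448) and -1.63 ± 0.20 between outgrowth and control (SE, edgeR adjusted p = 0.00144). The call at initiation was narrow: it was lost under 10 of 16 alternative settings, including each omission of a library except that of control replicate 1 (edgeR adjusted p between 0.0973 and 0.153). A fit that leaves out a library has 1 sample in that group, which is assumed to vary like the other groups. Without control replicate 2 the log2 fold change of OSH15 was -0.34. At outgrowth the call for OSH15 held under all 16 alternatives, with log2 fold changes between -1.87 and -1.34.

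**Figure D1:**
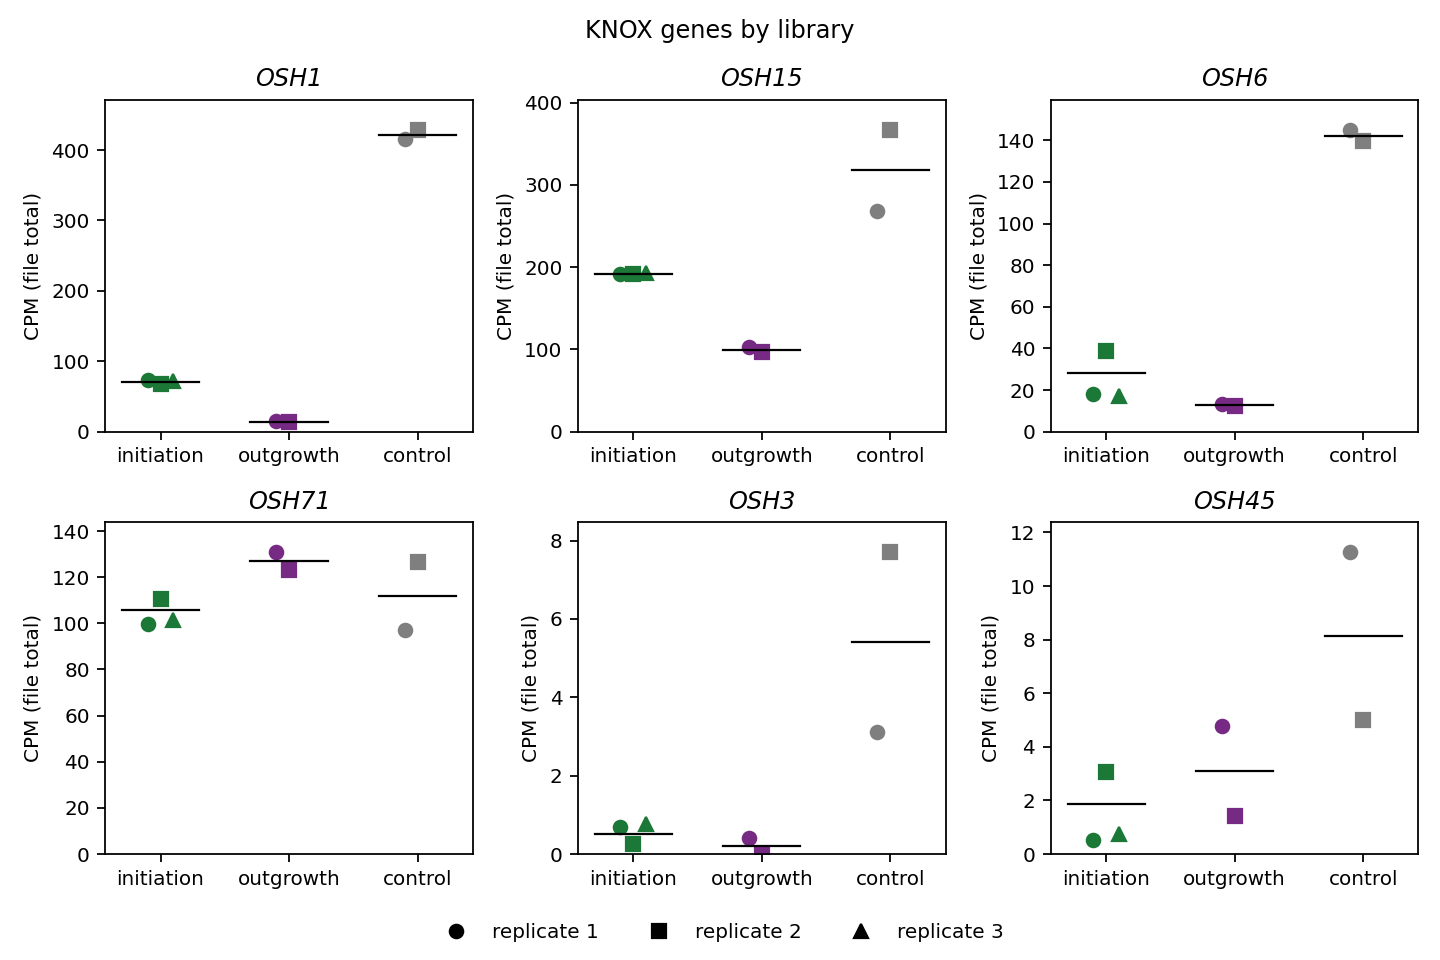
CPM (vertical axes, from 0) of the 6 KNOX genes that passed the filter on low counts, for each library of initiation, outgrowth and control (horizontal axes). Symbols mark replicates and bars the group means with initiation replicates 1 and 3 as 1 sample. OSH1 falls to 15.02 and 13.05 CPM at outgrowth, whereas OSH71 stays between 96.99 and 130.8 CPM in all libraries.

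OSH6, another class I gene, was likewise lower in primordia. It had 17.9, 38.7 and 17.3 CPM at initiation, 13.3 and 12.5 CPM at outgrowth, and 145.0 and 139.6 CPM in control. The initiation samples differed: replicates 1 and 3, counted as 1 sample, had 17.5 CPM and replicate 2 had 38.7 CPM. All primordium samples still lay far below both control samples. OSH6 averaged 28.1 ± 15.0 CPM over the initiation samples and 142.3 ± 3.81 CPM over the control samples (SD, n = 2 each), and its log2 fold change was -2.24 ± 0.37 (SE, edgeR adjusted p = 0.00418). Without initiation replicate 2 the log2 fold change was -2.95, and without initiation replicates 1 and 3 it was -1.76. At outgrowth OSH6 was 10.7-fold below control, with a log2 fold change of -3.41 ± 0.39 (SE, edgeR adjusted p = 0.00104).

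OSH71, a class I gene also named Oskn2, did not show this pattern. It had 99.6, 110.5 and 101.3 CPM at initiation, 130.8 and 123.0 CPM at outgrowth, and 97.0 and 126.8 CPM in control. The control pair alone spanned nearly the whole range, and both stages overlapped it. The log2 fold change of OSH71 was 0.00 at initiation against control, with a 95% interval from -0.46 to 0.47 (edgeR adjusted p = 0.992). At outgrowth against control it was 0.22, with a 95% interval from -0.24 to 0.69 (edgeR adjusted p = 0.447). These intervals leave out changes as large as those of OSH1 and OSH6, and leave room for smaller ones. The sign at initiation turned with library totals as the only scaling and in 4 other alternatives.

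OSH3, a close relative that stands next but 1 to OSH1 on chromosome 3, was scarce everywhere. It had 8, 4 and 16 reads at initiation (0.701, 0.266 and 0.760 CPM), 5 and 0 reads at outgrowth (0.399 CPM and none), and 26 and 196 reads in control (3.11 and 7.70 CPM). Both control libraries lay above all primordium libraries, and 0 reads in outgrowth replicate 2 allow up to 0.265 CPM, the level of 3 counts. At initiation the log2 fold change of OSH3 was -3.33 ± 1.30 (SE), short of the threshold (edgeR adjusted p = 0.0894). It passed with limma on log2(CPM + 1) (limma adjusted p = 0.0144) and with the 3 initiation libraries as 3 samples (edgeR adjusted p = 0.0345). At outgrowth it was -4.64 ± 1.43 (SE, edgeR adjusted p = 0.0472), and that call was lost without either outgrowth or either initiation sample (edgeR adjusted p between 0.0632 and 0.261). Its log2 fold change at outgrowth was -3.70 without outgrowth replicate 2, and without outgrowth replicate 1 no read of OSH3 was left at that stage. OSH3 reached 1 CPM in the control libraries alone, so it could enter the test only by being higher there.

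The other loci supplied as class I were at or near 0. OSH43 had 23 reads in control replicate 2, 0.904 CPM with an exact 95% counting interval of 0.573 to 1.36 CPM, and no read in any other library. The other libraries allow between 0.143 and 0.359 CPM at 3 counts, so the 0.904 CPM of control replicate 2 would have been above the limit in each of them, control replicate 1 included. LOC_Os03g56140 had no read in any library, which allows from 0.118 CPM in control replicate 2 to 0.359 CPM in control replicate 1. Neither locus was tested. Intervals and limits of this kind cover counting error only.

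OSH45, the class II gene, was low and variable. It had 0.526, 3.06 and 0.760 CPM at initiation, 4.79 and 1.41 CPM at outgrowth, and 11.3 and 4.99 CPM in control. Both control libraries lay above all primordium libraries, by a small margin over outgrowth replicate 1. Libraries of 1 group differed severalfold in initiation and outgrowth, and no comparison of OSH45 passed the test. Its log2 fold change was -2.01 at initiation against control, with a 95% interval from -4.32 to 0.31 (edgeR adjusted p = 0.165). At outgrowth against control it was -1.33, with a 95% interval from -3.60 to 0.93 (edgeR adjusted p = 0.351). Single libraries moved these values: with 1 sample left out, the log2 fold change of OSH45 ran from -3.49 (without initiation replicate 2) to -1.28 (without initiation replicates 1 and 3) at initiation, and from -2.45 (without outgrowth replicate 1) to -0.67 (without control replicate 1) at outgrowth. None of these fits passed the test.

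Counted over the family, 3 of 8 members were called lower at initiation than in control (OSH1, OSH15 and OSH6). Of the 8 members 6 were tested, and 16.1% of all genes tested were called lower. The same 3 members were lower than control at outgrowth, where 13.6% of all genes tested were called lower, and with both stages averaged, where 19.4% were. OSH3 was also called lower at outgrowth and with both stages averaged, but it is left out of these counts because it entered the test through control alone. The shares over all genes still include any genes that entered in that way. With both stages averaged the call of OSH3 was lost without initiation replicate 2 or outgrowth replicate 2 (edgeR adjusted p = 0.0691 and 0.0785). No member was called higher in these 3 comparisons by edgeR, DESeq2 or limma. Over all genes tested, 14.4%, 12.8% and 15.4% were called higher at initiation, outgrowth and both averaged (edgeR adjusted p below 0.05). With so few members tested, 0 called higher is near these shares. At an unadjusted p below 0.05 in edgeR 0 members were higher, and no share over all genes was taken at that threshold. Of the 8 members, 6 passed the filter of 1 CPM in 2 libraries. Their median log2 fold change was -2.12 at initiation and -2.52 at outgrowth, beside -0.05 and -0.02 over all genes tested. This median leaves out OSH43 and LOC_Os03g56140 and includes OSH3, which passed through control alone, so it describes the tested loci and not the family. The comparisons with control share the control libraries.

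**Figure D2:**
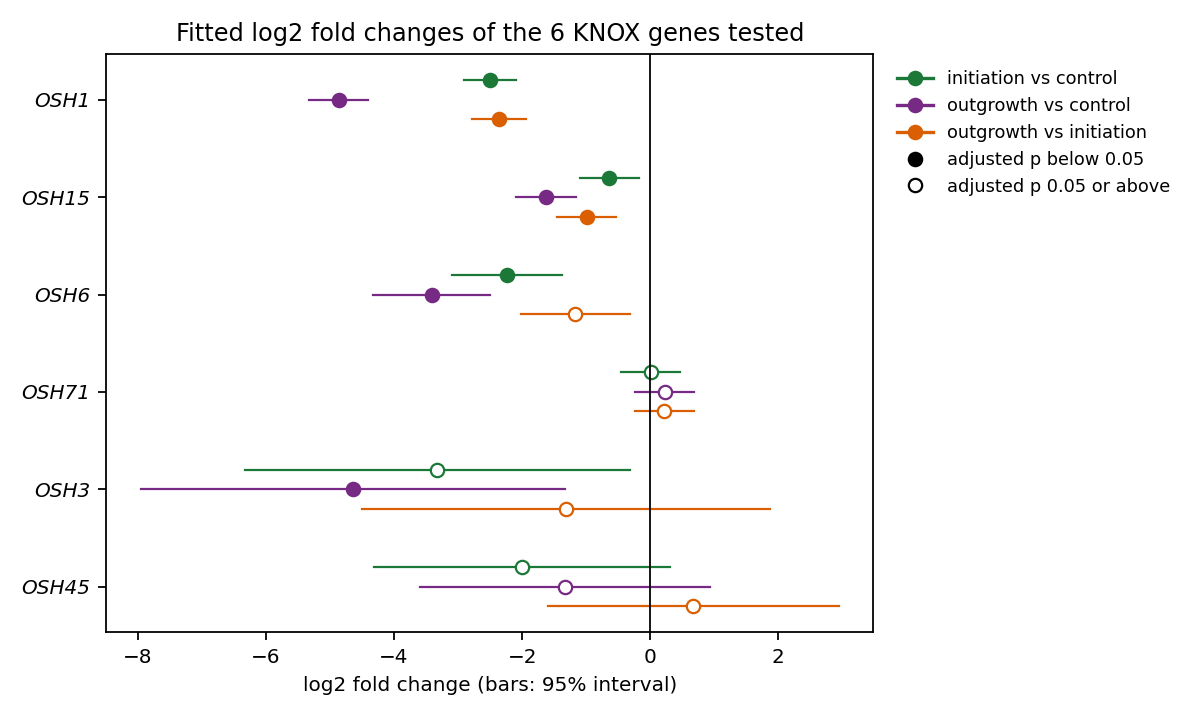
Fitted log2 fold changes (horizontal axis) of the 6 KNOX genes tested (rows), with 95% intervals as bars, for initiation against control, outgrowth against control and outgrowth against initiation. Filled points passed an edgeR adjusted p of 0.05. OSH1 lies at -2.50, -4.86 and -2.36 in these comparisons, and the intervals of OSH71 all cross 0.

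Between the stages, the question was whether KNOX genes differ between a primordium growing out and one being initiated. OSH1 and OSH15 were lower at outgrowth than at initiation, 2 of 8 members. Of the 8 members 6 were tested, and 1.83% of all genes tested were called lower. OSH1 was 5.15-fold lower at outgrowth, with a log2 fold change of -2.36 ± 0.18 (SE, edgeR adjusted p = 0.00523). OSH15 was 1.99-fold lower, with a log2 fold change of -0.99 ± 0.20 (SE, edgeR adjusted p = 0.0447). For OSH6 the log2 fold change was -1.17 ± 0.37 (SE), short of the threshold (edgeR adjusted p = 0.144), and it was -0.46 without initiation replicate 2. Without initiation replicates 1 and 3 the log2 fold change of OSH6 was -1.65, with an edgeR adjusted p of 0.0371, in a fit that has 1 initiation sample left. OSH71 had a log2 fold change of 0.22 between the stages, with a 95% interval from -0.25 to 0.68 (edgeR adjusted p = 0.668). OSH3 and OSH45 had intervals of -4.50 to 1.87 and -1.60 to 2.94. No member was called higher at outgrowth by edgeR, DESeq2 or limma, where 1.25% of all genes tested were called higher at an edgeR adjusted p below 0.05. At an unadjusted p below 0.05 in edgeR 0 members were higher, and no share over all genes was taken at that threshold.

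The stage difference of OSH1 kept its size when libraries were left out, but not always its call. Without outgrowth replicate 1 or 2 its log2 fold change was -2.45 or -2.26, with edgeR adjusted p of 0.0983 and 0.0982. Those fits have 1 outgrowth sample left, and the loss of calls between the stages was not particular to OSH1. OSH15 lost its call without either outgrowth sample or either initiation sample, at log2 fold changes between -1.02 and -0.94 (edgeR adjusted p between 0.116 and 0.347). The outgrowth tables differ in format from the others, so a separate batch and the stage cannot be told apart.

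Read together, 3 of the 6 tested members (OSH1, OSH15 and OSH6) had CPM in both control samples above both initiation samples, and both initiation samples above both outgrowth samples. Of all 18830 genes tested, 5.86% had this order. Whether a separate batch of the outgrowth libraries adds to their lowest place in it was not tested. The summed level of the 8 members had this order as well. The sum includes these 3 genes, which held most of the members' reads in control, so it is not separate support. The sum was 383.6, 411.5 and 385.2 CPM at initiation, 267.2 and 246.3 CPM at outgrowth, and 939.8 and 1075 CPM in control.

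The members' mixture therefore differed between the tissues, which can be seen within each library without any scaling between libraries. Reads are not divided by gene length here, so a share says nothing of 1 gene's level beside another's, and only its change between libraries is read. OSH1 took 19.0%, 16.5% and 18.6% of the members' reads at initiation, 5.62% and 5.30% at outgrowth, and 44.2% and 39.9% in control. OSH71 took 26.0%, 26.9% and 26.3% at initiation, 48.9% and 49.95% at outgrowth, and 10.3% and 11.8% in control. The share of OSH1 was lowest at outgrowth and highest in control, and that of OSH71 the reverse, with no overlap between groups for either gene. In CPM, OSH71 was not called different in any comparison. Its share thus mostly restates the lower reads of OSH1, OSH15 and OSH6 and is not a separate result for OSH71.

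**Figure D3:**
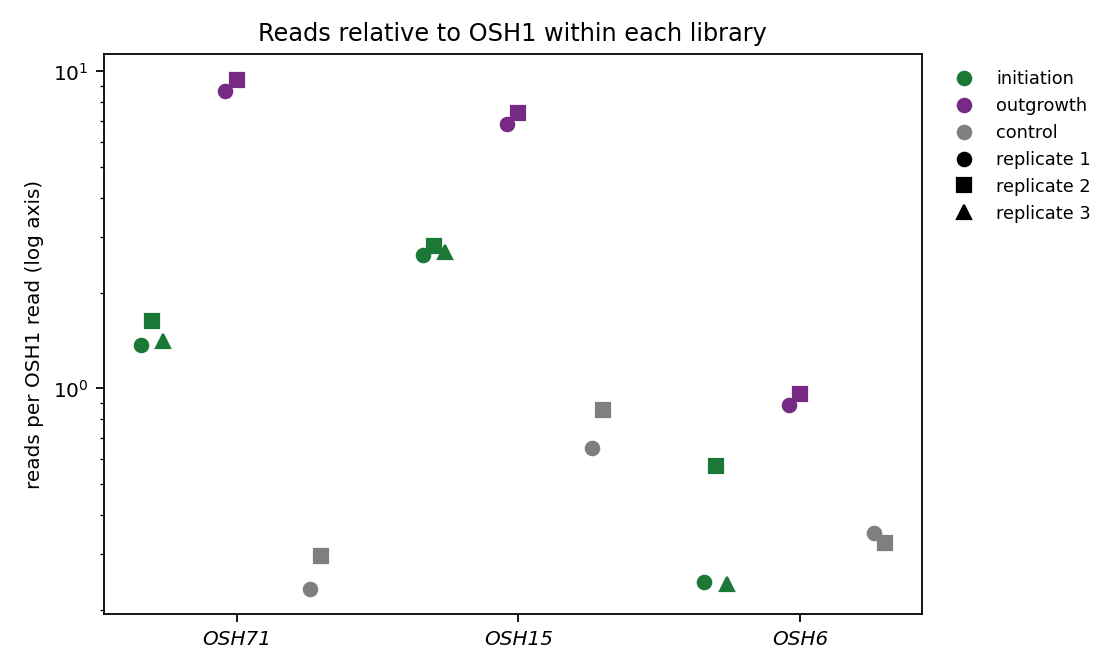
Reads of OSH71, OSH15 and OSH6 divided by the reads of OSH1 in the same library (vertical axis, log scale), by group (colour) and replicate (symbol). For OSH71 the ratio is 1.37 to 1.63 at initiation, 8.71 and 9.43 at outgrowth, and 0.234 and 0.296 in control.

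The ratio of OSH71 to OSH1 reads put this in 1 number per library, and it too mostly restates the fall of OSH1. It was 1.37, 1.63 and 1.41 at initiation, 8.71 and 9.43 at outgrowth, and 0.234 and 0.296 in control. The ratio of OSH15 to OSH1 reads had the same order, with 2.63, 2.82 and 2.70 at initiation, 6.85 and 7.38 at outgrowth, and 0.647 and 0.856 in control. The ratio of OSH6 to OSH1 reads did not separate initiation from control. It was 0.245, 0.570 and 0.241 at initiation, 0.888 and 0.960 at outgrowth, and 0.349 and 0.326 in control, highest at outgrowth.

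The loci beside OSH1 and OSH3 on chromosome 3 were examined to set this pair in its context. LOC_Os03g51680, the nearest listed locus before OSH1, had 6.84, 4.46 and 6.56 CPM at initiation, 5.75 and 5.73 CPM at outgrowth, and 7.18 and 3.22 CPM in control. LOC_Os03g51700, which lies between OSH1 and OSH3, had 4.82, 3.66 and 5.32 CPM at initiation, 2.24 and 1.59 CPM at outgrowth, and 1.92 and 5.11 CPM in control. Neither flanking locus passed the test in any comparison (lowest edgeR adjusted p = 0.469 against control, for LOC_Os03g51700 at outgrowth). LOC_Os03g51740, the nearest listed locus after OSH3, went the other way. It had 4.21, 1.33 and 4.23 CPM at initiation, 3.84 and 3.79 CPM at outgrowth, and no read in control. Set against 3 counts pooled over both control libraries, it was at least 31.1-fold higher at initiation. This bound takes in counting error of the control reads alone, and not that of the primordium reads or the spread between libraries. From initiation replicate 2 alone, the lower of the initiation samples, the bound was 15.0-fold. At outgrowth the bound was at least 43.0-fold. LOC_Os03g51740 reached 1 CPM in primordium libraries alone, so it could enter the test only by being higher there. Its test is therefore not read as support.

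**Figure D4:**
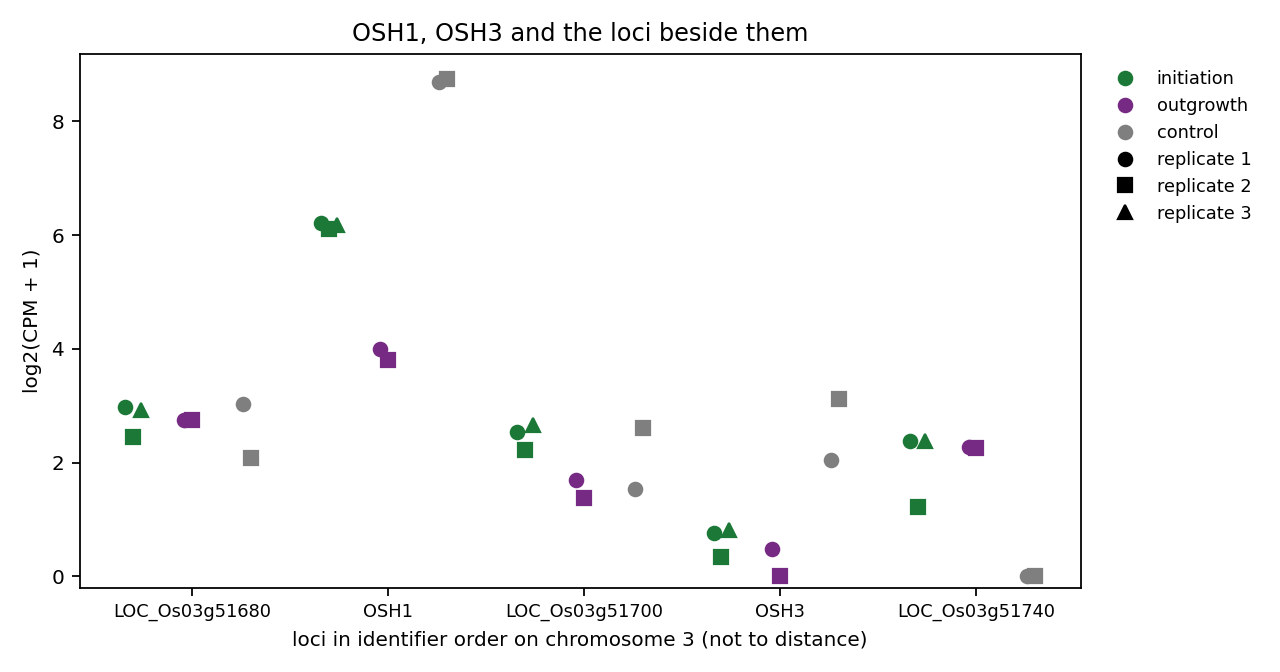
Levels as log2(CPM + 1) (vertical axis) of OSH1, OSH3 and the nearest listed loci in identifier order on chromosome 3 (horizontal axis), by group (colour) and replicate (symbol). OSH1 separates the groups, LOC_Os03g51680 and LOC_Os03g51700 do not, and LOC_Os03g51740 has no read in either control library.

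Around OSH43 the reads were few. LOC_Os03g56090, the nearest listed locus before it, had 0, 0.999 and 0 CPM at initiation, 1.76 and 1.50 CPM at outgrowth, and 9.82 and 24.2 CPM in control. It was lower at initiation than in control, with a log2 fold change of -4.99 (edgeR adjusted p = 0.0249), and at outgrowth its log2 fold change of -3.34 was short of the threshold (edgeR adjusted p = 0.0769). LOC_Os03g56120, between OSH43 and LOC_Os03g56140, had 5, 1 and 8 reads at initiation and none at outgrowth or in control. LOC_Os03g56180, after the pair, had no read at initiation, 1 and 3 reads at outgrowth, and 4 and 20 reads in control.

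Genes with a pattern like that of the KNOX genes were sought by Pearson r of log2(CPM + 1) over the 6 samples, as a description. The first initiation value given for these genes is that of replicates 1 and 3 combined, and the second is replicate 2. For OSH15, the class I member with the highest mean CPM, the nearest were LOC_Os04g21710 (r = 0.997), LOC_Os05g32100 (r = 0.997) and LOC_Os03g13570 (r = 0.993). LOC_Os04g21710 had 24.5 and 24.6 CPM at initiation, 7.19 and 7.14 CPM at outgrowth, and 55.1 and 95.2 CPM in control. For OSH1, added after its values were seen, the nearest were LOC_Os03g12950 (r = 0.999), LOC_Os02g30240 (r = 0.998) and LOC_Os02g50040 (r = 0.998). LOC_Os02g30240 had 6.78 and 7.33 CPM at initiation, 1.20 and 1.24 CPM at outgrowth, and 41.3 and 44.2 CPM in control. For OSH45 the nearest were LOC_Os01g34470 (r = 0.987), LOC_Os03g11310 (r = 0.985) and LOC_Os08g41420 (r = 0.974). LOC_Os01g34470 had 0.123 and 0.933 CPM at initiation, 1.12 and 0.353 CPM at outgrowth, and 2.395 and 1.61 CPM in control. As with OSH45 itself, no comparison of the genes nearest to it passed the test.

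Among 18829 genes compared, 62 had r over 0.99 with OSH1, 11 with OSH15 and 0 with OSH45. Between members, r with OSH1 was 0.976 for OSH15, 0.953 for OSH6, 0.890 for OSH3, 0.548 for OSH45 and -0.45 for OSH71. The libraries share their groups and scaling, so these values describe the 6 samples and not single-cell or plant-to-plant variation.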

How the data were processed

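RNA was isolated with a PicoPure kit and amplified with a SMARTer low-input kit, per the labels' protocols. Per the submitters' processing notes, STAR was the aligner. Its version, the counting tool, genome build, annotation and use of strand are not given in the sources used. The deposited tables head their values FPKM, but the values were treated as gene-level read counts, being whole numbers with totals of 8351775 to 25448025. A locus missing from a table was taken as 0 reads. No deposited identifier matched the RefSeq table, so lists of partner, hormone and tissue marker genes written by symbol could not be applied, and no sequences are shown.

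Initiation replicates 1 and 3 were averaged. All 6 samples entered edgeR 4.0.16 (R 4.3.3) quasi-likelihood fits with TMM scaling, over 18830 genes with at least 1 CPM in 2 libraries. The fit left 3 residual and 4.72 prior degrees of freedom. Benjamini-Hochberg adjustment ran over all genes, two-sided, with a threshold of 0.05. Each standard error was the log2 fold change over the root of its F value. The test was tried on simulated counts first. The alternatives used DESeq2 1.42.0, limma 3.58.1, other scalings, filters and sample sets. Named genes were the 8 members, the nearest listed loci of the 2 chromosome 3 pairs and the 3 genes most like OSH15 and OSH45, with OSH1 added later. The members, lists and tests were chosen with earlier results of these data known.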

Additional observations from a re-analysis of the deposited data

Results flagged for a closer look

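The difference from control changed between the stages for OSH1 and OSH15, by the test of outgrowth against initiation. For OSH1 the log2 fold change between the stages was -2.36 (edgeR adjusted p = 0.00523), and both outgrowth samples lay below both initiation samples. For OSH15 it was -0.99 (edgeR adjusted p = 0.0447), with the same separation of samples. Of 16 alternatives, the call was lost in 3 for OSH1 and in 5 for OSH15. The tables of the stages also differ in format, so stage and any batch cannot be told apart.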

How the results depend on the processing

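Over 16 alternatives, all of which tested them, OSH1 and OSH6 kept their calls against control at each stage and with both averaged, as did OSH15 at outgrowth and with both stages averaged. Between outgrowth and initiation, 2 members were called lower. With no abundance trend of the dispersion the number was 0 (OSH1 edgeR adjusted p = 0.0787). That fit called 0 genes of the whole table between the stages. The number also fell in some fits with 1 library left out. The cause of these changes was not tested. Over all genes, the calls between stages ranged from 0 to 938 higher and from 0 to 1011 lower, against 235 and 345. Against control they ranged from 1451 to 4607 higher and 1625 to 4305 lower at initiation (2704 and 3025 as reported), from 736 to 4492 and 787 to 3225 at outgrowth (2413 and 2563), and from 1589 to 4685 and 2041 to 4487 with both averaged (2899 and 3656). DESeq2 called OSH6 lower between the stages as well (adjusted p = 0.0395), as did a fit with no low filter (edgeR adjusted p = 0.0188). The log2 fold change of OSH71 at initiation was 0.0048, and -0.086 with library totals only, -0.021 with a 5 CPM filter and -0.030 with 3 initiation samples; with 1 library left out it ran from -0.20 (without control replicate 1) to 0.27 (without control replicate 2). With both stages averaged that range was -0.093 to 0.37. That of OSH45 between the stages, 0.67, ran with 1 library left out from -0.44 (without outgrowth replicate 1) to 2.15 (without initiation replicate 2), and was -0.052 without initiation replicates 1 and 3. The replicate numbers share only a number: deviations of same-numbered samples correlated at -0.03 to 0.02. With the replicate block, 2 members were called lower at initiation, as OSH15 was not called (edgeR adjusted p = 0.0583), 3 at outgrowth, as OSH3 was not (edgeR adjusted p = 0.0721), and 2 between stages. OSH3 could not be tested without a control library. OSH3, OSH43 and OSH45 rest on few reads. For OSH45 the counting intervals did not overlap between the libraries of control or of outgrowth. Nor did that of initiation replicate 2 overlap those of replicates 1 and 3.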
